A study of Mus musculus with 5 samples.

Results

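The genes described here encode immunity-related GTPases (IRG) and guanylate-binding proteins (GBP), 2 families of interferon-inducible GTPases. They were read in mouse embryonic fibroblasts that carry an overactive form of STING. The members were chosen by name, as every probe set annotated with exactly 1 symbol where that symbol was Iigp1, Irgm1, Irgm2, Igtp, Gbp2, Gbp3, Gbp5 or Gbp7. Of these 8 genes, 7 had such a probe set, 1 each, out of 22180 genes with a single-symbol probe set on the array. Gbp2 was annotated only on a probe set that also lists Gbp2b, so it has no value here.

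The fibroblasts, labelled as primary cells, lacked their own STING (STING-/-) and carried the R284S variant in its place on all 5 arrays, vehicle included. STING is the adaptor of cytosolic DNA sensing, and R284S is known as a gain-of-function form. The cells were exposed for 9 hours to Compound C, doxorubicin, GSK 690693, tofacitinib or vehicle, with 1 array for each, and the submitters refer to the treatments as AMPK inhibitors. Compound C, or dorsomorphin, blocks the energy sensor AMPK and BMP type I receptors, and doxorubicin, an anthracycline, traps topoisomerase II on DNA. GSK 690693 is directed at AKT kinases but also hits AMPK, whereas tofacitinib blocks the JAK kinases that interferon receptors signal through. The sources used here give no dose, no vector for R284S and no number of cultures behind an array, and cells without STING or with its normal form were not analysed here. Since each treatment has 1 array, neither an error nor a p-value can be given, and every difference below is one between single arrays without a replicate check.

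Both families are part of cell-autonomous immunity, in which an infected cell attacks a microbe inside its own cytoplasm. Their genes are switched on by interferon gamma, in part through IRF1, and by type I interferons through a complex that holds STAT2 and IRF9 and binds the interferon-stimulated response element (ISRE). In mice, IRG effectors such as Iigp1, also called Irga6, load onto the vacuole of Toxoplasma and break it. The regulators Irgm1, Irgm2 and Igtp, also called Irgm3, sit on the membranes of the host cell and keep the effectors inactive there. GBPs are larger, dynamin-like GTPases that coat vacuoles and bacteria. Gbp2 and Gbp5 carry a lipid anchor, Gbp5 is known as a promoter of NLRP3 inflammasome assembly in macrophages, and Gbp7 has been linked to the phagosomal NADPH oxidase.

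The promoters of the members are shown first because interferon acts on these genes through short elements in them. Sequences are from RefSeq, build GRCm38.p6, in windows that run from 250 bases before to 50 bases after an annotated gene start. Such windows were given for 7 of the 8 members, all but Iigp1, and 1 of them, Gbp3, has 2 windows. The whole window is printed for the IRG gene and the GBP gene of this group that had the largest difference from vehicle on any array. For the other genes it is a stretch of 60 bases around the match. The sequences run 5′ to 3′ on the strand of the gene, and capitals mark matches to an ISRE-like motif, spelled TTTC, any 2 bases, then TTTC, or on the opposite strand GAAA, any 2 bases, then GAAA.
Irgm2, chr11:58214727-58215026, + strand: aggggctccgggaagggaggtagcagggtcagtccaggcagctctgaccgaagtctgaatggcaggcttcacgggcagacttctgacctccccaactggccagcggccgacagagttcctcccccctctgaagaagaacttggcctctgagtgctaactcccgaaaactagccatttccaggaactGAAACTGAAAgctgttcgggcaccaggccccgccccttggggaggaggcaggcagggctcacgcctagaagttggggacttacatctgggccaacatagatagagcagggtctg
Gbp7, chr3:142530086-142530385, + strand: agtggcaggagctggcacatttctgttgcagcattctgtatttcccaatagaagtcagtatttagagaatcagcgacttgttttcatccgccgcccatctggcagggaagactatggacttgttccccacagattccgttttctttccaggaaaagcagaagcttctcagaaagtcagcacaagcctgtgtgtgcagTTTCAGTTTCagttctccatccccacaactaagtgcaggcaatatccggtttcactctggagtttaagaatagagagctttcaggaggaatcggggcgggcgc
Igtp, chr11:58199497-58199556, + strand: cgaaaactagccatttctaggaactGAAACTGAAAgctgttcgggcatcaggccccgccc
Irgm1, chr11:48871413-48871472, - strand: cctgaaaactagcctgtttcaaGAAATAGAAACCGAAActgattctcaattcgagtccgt
Gbp2, chr3:142620579-142620638, + strand: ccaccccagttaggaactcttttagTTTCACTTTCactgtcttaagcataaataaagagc
Gbp3, chr3:142559977-142560036, + strand: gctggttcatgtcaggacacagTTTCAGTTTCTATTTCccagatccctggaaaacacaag
Gbp5, chr3:142496744-142496803, + strand: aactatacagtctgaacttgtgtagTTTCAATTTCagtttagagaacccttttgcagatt

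All 7 genes with a window held the ISRE-like motif in their first window, against 3.44% of the 32851 promoter windows in the table. The second window of Gbp3 held none. In Irgm1 and Gbp3 a pair of overlapping matches was found. The first base of the match lay 30 bases before the start in Irgm1, 64 in Irgm2, 34 in Igtp, 59 in Gbp2, 45 in Gbp3 and 53 in Gbp7, counting the more distant match where there was a pair. Gbp5 differed, with its match 165 bases before the start. In the IRG genes the motif lay in its GAAA form on the strand of the gene, and in the GBP genes in its TTTC form. An element of the gamma-activated site type (GAS-like, spelled TTCNNNGAA, the same on both strands) was matched in 4 of the 7 genes, Irgm2, Igtp, Gbp5 and Gbp7, and in 8.3% of all windows, and no GAS-like match overlapped an ISRE-like one in these genes. Igtp and Irgm2 are adjacent on chromosome 11, and their windows were identical at 247 of 264 aligned bases. Gbp5, Gbp7 and Gbp3 follow one another on chromosome 3. A match describes the letters of the window and does not show that a factor binds there.

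**Figure D1:**
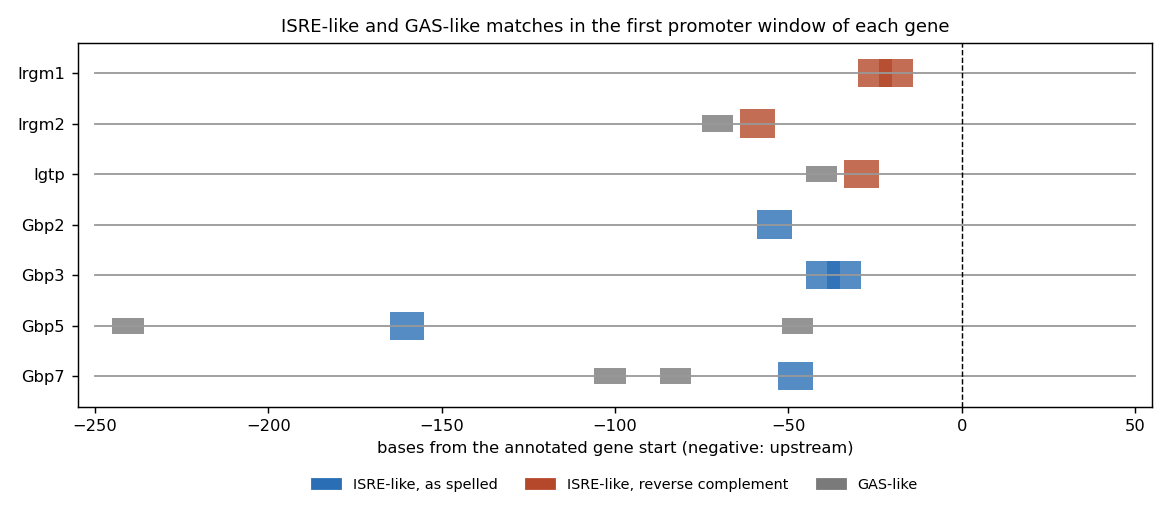
Positions of ISRE-like matches (tall boxes) and GAS-like matches (short grey boxes) in the first promoter window of 7 genes, with bases from the annotated start on the horizontal axis and 1 line per gene. The ISRE-like match starts between 30 and 64 bases upstream in 6 genes and at 165 bases in Gbp5.

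The values are log2 signal, so a difference of 1 is 2-fold. A gene was counted, and is called tested below, if its brightest array was at or above that array's median over single-symbol probe sets (5.37 to 5.44), which held for 12311 genes. No statistical test is meant by the word. The smallest standard deviation of the difference over these genes, 0.258 for GSK 690693 and tofacitinib, served as the yardstick for a single difference, and the largest for a compound against vehicle was 0.584, for doxorubicin. The fibroblast markers reached the level for testing in 13 of 13 genes, against 3 of 10 myeloid, 1 of 9 lymphocyte, 2 of 6 endothelial and 3 of 5 epithelial ones. The leukocyte marker Ptprc, which read 3.78 with Compound C, 3.65 with doxorubicin, 3.76 with GSK 690693, 3.82 with tofacitinib and 3.86 with vehicle, did not reach that level on any array. Of the 3 myeloid markers that did, Cd68 read 1.07 higher with doxorubicin than with vehicle, and Cd14 differed by at most 0.32. Csf1r reached that level only through the GSK 690693 array, where it read 0.59 higher than with vehicle, so nothing is read from that difference. The part of these markers in the members' values was not tested. Summed log2 signal over the 10 myeloid markers lay between 46.5 and 48.9 over the 5 arrays. In total RNA of a culture, fewer expressing cells and less RNA per cell cannot be told apart. Genes with more than 1 probe set had 1341 additional probe sets, and of these 5.07% were at least 1.5-fold lower with tofacitinib than with vehicle, against 1.76% of the brightest probe sets of the same 1082 genes. With the other compounds the shares lay the other way, at 2.91% against 7.3% (Compound C), 4.92% against 9.98% (doxorubicin) and 1.34% against 2.59% (GSK 690693). All members have a single probe set, and the part of this in their values was not tested.

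Iigp1, the IRG effector, had the widest range of the members over the 5 arrays. Its log2 signal was 7.83 with Compound C, 8.53 with doxorubicin, 7.08 with GSK 690693, 5.96 with tofacitinib and 8.70 with vehicle. The order from low to high was tofacitinib, GSK 690693, Compound C, doxorubicin and vehicle, and of the neighbouring steps only that between doxorubicin and vehicle, 0.17, was under the yardstick. Iigp1 read 6.68-fold lower with tofacitinib than with vehicle (log2 −2.74), which placed it at rank 3 from the lowest of the 12311 differences, and 3.07-fold lower with GSK 690693 (−1.62), at rank 5. With Compound C the difference was −0.87.

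Irgm2, a membrane-guarding regulator, had a log2 signal of 7.65 with Compound C, 8.40 with doxorubicin, 8.29 with GSK 690693, 6.46 with tofacitinib and 8.96 with vehicle. Tofacitinib gave by far the lowest reading, 5.66-fold below vehicle (log2 −2.50, rank 4 of 12311), and Compound C came next at 2.48-fold (−1.31, rank 110). Doxorubicin and GSK 690693 lay 0.11 apart, under the yardstick, at −0.56 and −0.67 from vehicle.

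Igtp, the regulator next to Irgm2 on the chromosome, had a log2 signal of 7.81 with Compound C, 8.81 with doxorubicin, 7.88 with GSK 690693, 6.73 with tofacitinib and 8.38 with vehicle. It was again lowest with tofacitinib, by 3.14-fold against vehicle (log2 −1.65, rank 13), while Compound C and GSK 690693 lay 0.07 apart, at −0.57 and −0.50. Unlike Irgm2, it read higher with doxorubicin than with vehicle, by 0.43. These 2 neighbours, whose promoter windows are nearly the same, thus lay on opposite sides of vehicle with doxorubicin, although neither reached 1.5-fold. Both differences were under the standard deviation of 0.584 of this pair of arrays over all tested genes, so no split of the 2 genes is read from them.

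Irgm1, the regulator best known for resistance to mycobacteria and for a link to autophagy, varied least among the IRG genes. Its log2 signal was 8.43 with Compound C, 8.88 with doxorubicin, 8.94 with GSK 690693, 8.52 with tofacitinib and 9.10 with vehicle. The readings formed an upper set (vehicle, GSK 690693 and doxorubicin) and a lower set (tofacitinib and Compound C), with every step inside a set under the yardstick and 0.36 between the sets. That step, from doxorubicin to tofacitinib, was under the standard deviation of 0.58 of this pair over all tested genes, so no split is read from it. Its differences from vehicle were −0.67 with Compound C and −0.58 with tofacitinib, the second just short of 1.5-fold.

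Among the GBP genes, Gbp7 had a log2 signal of 8.97 with Compound C, 10.11 with doxorubicin, 8.86 with GSK 690693, 8.82 with tofacitinib and 10.37 with vehicle. Compound C, GSK 690693 and tofacitinib gave nearly the same reading, within 0.15 of one another, and all 3 were well below doxorubicin and vehicle. The differences from vehicle were −1.40 with Compound C (2.64-fold lower, rank 82), −1.51 with GSK 690693 (2.85-fold, rank 11) and −1.55 with tofacitinib (2.93-fold, rank 17). With doxorubicin it was −0.26.

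Gbp3, which is recruited to Toxoplasma vacuoles in mouse cells, had a log2 signal of 8.34 with Compound C, 8.72 with doxorubicin, 7.76 with GSK 690693, 7.58 with tofacitinib and 8.76 with vehicle. GSK 690693 and tofacitinib gave the lowest pair, 2.0-fold and 2.27-fold below vehicle (log2 −1.0 and −1.18) and 0.18 apart. Compound C stood between this pair and vehicle at −0.42, and doxorubicin differed from vehicle by −0.04.

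Gbp5 was dim. Its log2 signal was 4.39 with Compound C, 5.63 with doxorubicin, 4.34 with GSK 690693, 4.35 with tofacitinib and 4.58 with vehicle. It stood out with doxorubicin alone, 2.07-fold above vehicle (log2 1.05, rank 105 from the highest), and the other 4 arrays lay within 0.24 of one another. It reached the level for testing only through the doxorubicin array, so that it could not have counted as tested without reading higher there. Whether its lower readings were above background is unknown, and a further decrease with the other compounds could not have been seen if they were not.

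**Figure D2:**
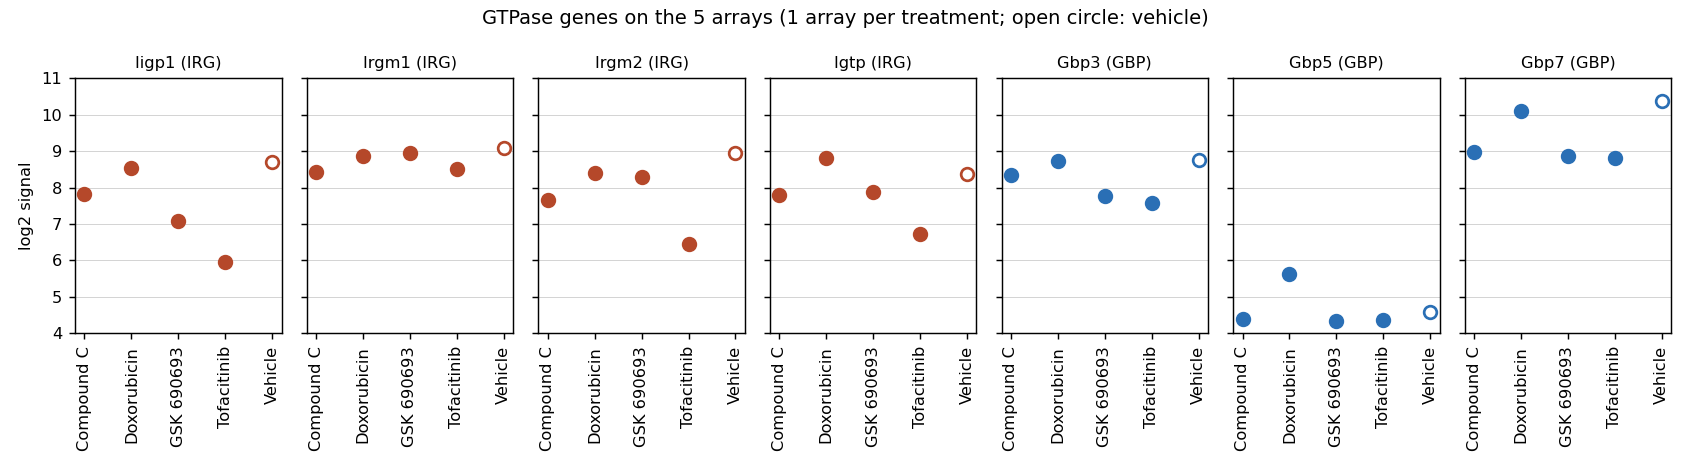
Log2 signal of the 7 measured genes (1 panel per gene, IRG in red, GBP in blue) on the 5 arrays, with vehicle as an open circle at the right. Iigp1, Irgm2 and Igtp read lowest with tofacitinib, Gbp7 is near 9 with Compound C, GSK 690693 and tofacitinib, and Gbp5 is raised on the doxorubicin array only.

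Set against vehicle, tofacitinib, the JAK inhibitor, gave the lowest readings for most of the group, the exceptions being Irgm1 and Gbp5. In Gbp3 and Gbp7 it lay below GSK 690693 by less than the yardstick. At least 1.5-fold lower than with vehicle were 5 of the 7 genes, Iigp1, Irgm2, Igtp, Gbp3 and Gbp7, against 2% of all tested genes. At least 1.5-fold higher were 0, against 2.66%. The same 5 were at least 2-fold lower, against 0.414% of tested genes. The median difference of the members was −1.55 (2.93-fold), beside 0.09 over all tested genes. When each array was centred on its median, the median over all tested genes moved by −0.17, to −0.08. The background of 1.5-fold lower and higher genes then became 4.87% and 0.544%, and after quantile normalization 2.64% and 1.32%. The median of the 4 IRG genes was −2.08 and that of the 3 GBP genes −1.18, or −1.37 without the dim Gbp5.

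With GSK 690693, 4 of the 7 genes were at least 1.5-fold lower than with vehicle, Iigp1, Irgm2, Gbp3 and Gbp7, beside 3.21% of all tested genes, and 0 were higher, beside 2.4%. Among them 3, Iigp1, Gbp3 and Gbp7, reached 2-fold, beside 0.601%. The median difference was −0.67, against 0.04 over all tested genes, with −0.59 for the IRG genes and −1.0 for the GBP genes, or −1.26 without Gbp5. The GBP genes thus had the lower median with GSK 690693 and the IRG genes with tofacitinib, both with and without Gbp5. Irgm1 (−0.16) and Gbp5 (−0.24) lay within the yardstick of vehicle. After centring, 4.39% of tested genes were 1.5-fold lower and 1.39% higher.

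Compound C also left 4 of the 7 genes at least 1.5-fold below vehicle, Iigp1, Irgm1, Irgm2 and Gbp7, but against a wider background of 9.99% lower and 6.07% higher, and 0 members were higher. At 2-fold there were 2, Irgm2 and Gbp7, against 2.53% of tested genes. The median was −0.67, beside −0.02 over all tested genes, and was −0.77 for the IRG genes and −0.42 for the GBP genes. Without the dim Gbp5 the GBP median was −0.91, so the order of the families with Compound C rests on that gene. Irgm1 passed 1.5-fold with Compound C on the deposited scale, and with tofacitinib only after rescaling (−0.75 after centring and −0.67 after quantile normalization). After centring, the background became 8.33% lower and 7.68% higher.

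Doxorubicin had the widest background, with 14.2% of tested genes at least 1.5-fold lower than with vehicle, 11.5% higher and 6.46% at least 2-fold lower. None of the 7 genes was 1.5-fold lower, and Irgm2 was after quantile normalization (−0.63). The 1 gene that was higher, Gbp5, reached the level for counting only through its doxorubicin reading, so nothing is read from that call, and 0 of the other 6 genes were higher. Irgm2 (−0.56) and Igtp (0.43) differed next, and the median of the members was −0.17, beside 0.05 over all tested genes. Over the 5 arrays, vehicle gave the highest reading for 5 of the 7 genes and doxorubicin for 2, Igtp and Gbp5. Over all tested genes vehicle was highest for 11.9% and doxorubicin for 35.7%. As Gbp5 counted only through doxorubicin, its place was fixed, and among the other 6 genes doxorubicin was highest for Igtp alone. Vehicle led the next array by less than the yardstick in Iigp1 (0.17), Irgm1 (0.16) and Gbp3 (0.04), and by more in Irgm2 (0.56) and Gbp7 (0.26). Tofacitinib gave the lowest reading for 5 of the 7, against 10.9% of all tested genes. The 4 sets of differences share 1 vehicle array, so they are not independent of one another. Without the dim Gbp5, the counts of lower genes stay as given and the medians over the other 6 genes are −0.77 (Compound C), −0.195 (doxorubicin), −0.835 (GSK 690693) and −1.60 (tofacitinib).

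**Figure D3:**
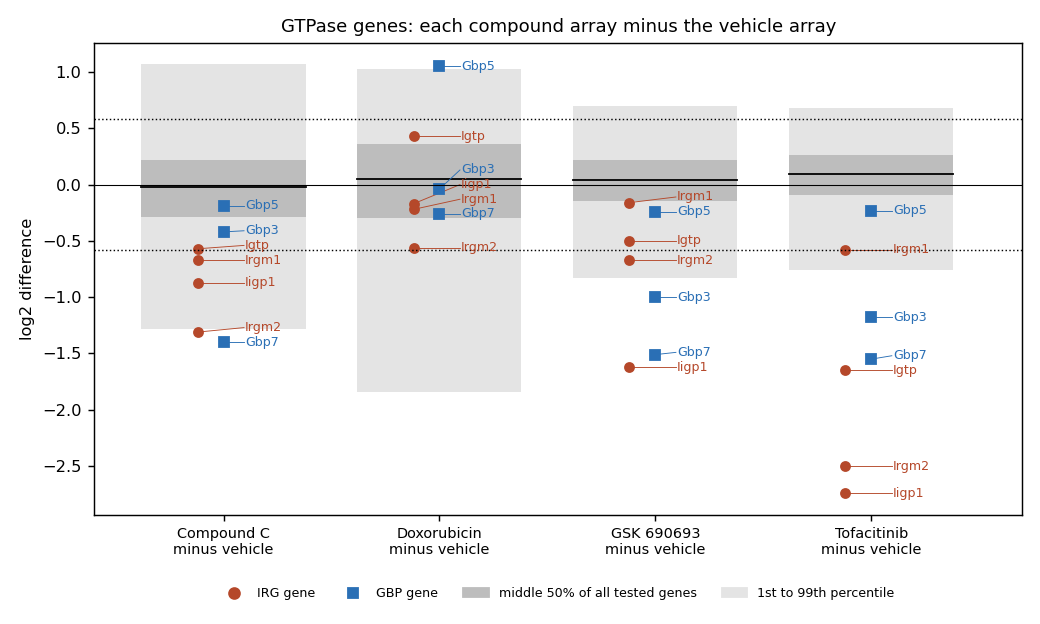
Log2 difference of each compound array from the vehicle array for the 7 genes (circles IRG, squares GBP), over bands that hold the middle 50% and the 1st to 99th percentile of all 12311 tested genes; dotted lines mark 1.5-fold. With tofacitinib 5 genes lie below the 1st percentile. With doxorubicin Gbp5 lies above the 99th, but it counts as tested only through that array, so nothing is read from its place.

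The 6 differences between compound arrays do not involve the vehicle array. GSK 690693 and tofacitinib differed in the IRG genes and hardly in Gbp3 and Gbp7, the measured GBP genes that were not dim. Read as GSK 690693 minus tofacitinib, Irgm2 differed by 1.83 (3.56-fold, rank 3 from the highest), Igtp by 1.15 (2.22-fold) and Iigp1 by 1.12 (2.17-fold). Irgm1 differed by 0.42, while Gbp3 (0.18), Gbp7 (0.04) and Gbp5 (−0.01) lay within the yardstick of 0.258, which comes from this pair of arrays. Thus 3 of the 4 IRG genes and 0 of the 3 GBP genes were at least 1.5-fold higher with GSK 690693, beside 1.15% of all tested genes. Gbp5 was dim on both arrays (4.34 and 4.35) and could not have shown a difference if it was at background. The GBP side of this contrast therefore rests on Gbp3 and Gbp7. The median over the members was 0.42, and −0.04 over all tested genes.

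Against Compound C, tofacitinib gave lower readings in the IRG genes Iigp1 (−1.87), Irgm2 (−1.19) and Igtp (−1.08) and in Gbp3 (−0.76). These were the 4 of 7 genes at least 1.5-fold lower, beside 5.5% of all tested genes, and Irgm1, Gbp5 and Gbp7 lay within 0.15. Between GSK 690693 and Compound C few of the 7 genes differed by 1.5-fold. Read as GSK 690693 minus Compound C, 1 gene, Iigp1 (−0.75), was at least 1.5-fold lower, beside 5.18% of tested genes, and 1, Irgm2 (0.64), higher, beside 11.2%. Gbp3 (−0.58) was just short of that size and Irgm1 differed by 0.51. Irgm2 lost its call after centring (0.51) and quantile normalization (0.57), where Gbp3 passed 1.5-fold (−0.71 and −0.67). The standard deviation of this pair over all tested genes was 0.452, and the higher count is near the background, so no order of the compounds is read from these calls. Igtp (0.07), Gbp5 (−0.05) and Gbp7 (−0.11) lay within the yardstick, and the median over the members was −0.05.

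Doxorubicin gave higher readings than each of the other compounds for most of the genes. Gbp5 counted here only through its doxorubicin reading, so each count is also given over the other 6 genes. Compared with tofacitinib, 6 of the 7 (5 of the other 6) were at least 1.5-fold higher, beside 5.69% of tested genes, from Gbp3 (1.14) to Iigp1 (2.57, 5.94-fold), and Irgm1 differed by 0.36 (0.59 after centring, which passes 1.5-fold). Compared with GSK 690693, 5 of the 7 (4 of the other 6) were at least 1.5-fold higher, beside 11.3%, led by Iigp1 (1.45), while Irgm2 (0.11) and Irgm1 (−0.06) lay within the yardstick. Compared with Compound C, 5 of the 7 (4 of the other 6) were higher, beside 15.4%, from Iigp1 (0.70) to Gbp7 (1.14) among the other 6, with Irgm1 at 0.45 and Gbp3 at 0.38.

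**Figure D4:**
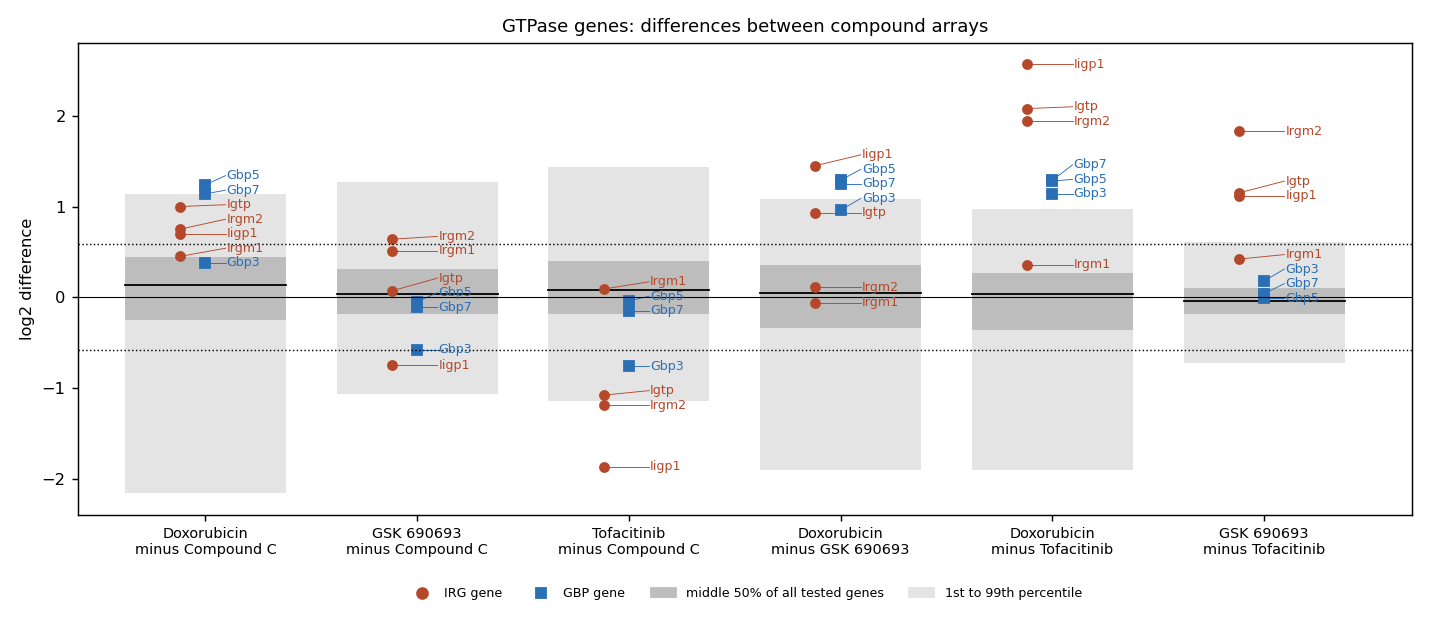
Log2 differences between pairs of compound arrays for the 7 genes (circles IRG, squares GBP), over bands that hold the middle 50% and the 1st to 99th percentile of all 12311 tested genes; dotted lines mark 1.5-fold. In GSK 690693 minus tofacitinib, Irgm2, Igtp and Iigp1 lie between 1.12 and 1.83 and the 3 GBP genes between −0.01 and 0.18.

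Of 21 further genes of the families, 16 had a single-symbol probe set, 5 were annotated only on probe sets with several symbols, and 6 reached the level for testing. Of these 6, 4 were at least 1.5-fold lower with tofacitinib, beside 2% of all tested genes, and 3 with GSK 690693, beside 3.21%. With Compound C 4 were lower, beside 9.99%, and with doxorubicin 1, beside 14.2%, which is near that background. With any compound 0 were higher, beside 2.4% to 11.5% of all tested genes. F830016B08Rik lost its Compound C call under both scalings (−0.54 centred and −0.56 quantile-normalized, against −0.60). The IRG-related gene F830016B08Rik, the neighbour of Iigp1, had a log2 signal of 5.68 with Compound C, 6.70 with doxorubicin, 4.88 with GSK 690693, 3.27 with tofacitinib and 6.28 with vehicle. Its order over the arrays was that of Iigp1 except that doxorubicin exceeded vehicle, and its difference with tofacitinib was −3.01. Its tofacitinib reading was dimmer than any of Gbp5, so whether it was above background is unknown and the size of that difference is uncertain. Gm4951 differed from vehicle by −0.77 (Compound C), −0.53 (doxorubicin), −1.01 (GSK 690693) and −1.90 (tofacitinib). Gbp9 resembled Gbp3, with −0.38, 0.22, −1.0 and −1.33 for the compounds in the same order. 9930111J21Rik2 went another way, at −1.52 with Compound C and −0.40 with tofacitinib. GSK 690693 minus tofacitinib was 1.61 in F830016B08Rik, 0.89 in Gm4951 and 0.33 in Gbp9. It was 0.29 in 9930111J21Rik2, 0.27 in Gbp10 and 0.14 in Irgq, so that Gbp9 and Gbp10 passed the yardstick of 0.258 and Irgq did not. Members of both families have close copies, so that probes of one gene may also capture transcripts of another, which was not tested.

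Genes known to carry interferon signals to promoters of this kind were mostly close to vehicle, with list medians between −0.07 and 0.005 for the 4 compounds. Of 22 listed receptors, JAK kinases, STATs, IRFs and feedback genes, 21 were measured and 18 tested. At least 1.5-fold lower than with vehicle were 4 with tofacitinib, 1 with GSK 690693, 1 with Compound C and 3 with doxorubicin, and 0 were higher. As shares of the 18, these are 22.2% with tofacitinib beside 2% of all tested genes, 5.56% with GSK 690693 beside 3.21%, 5.56% with Compound C beside 9.99%, and 16.7% with doxorubicin beside 14.2%, so that the last 2 are below or near the background. After centring, Irf2, Irf7 and Nlrc5 were also 1.5-fold lower with tofacitinib (−0.62, −0.66 and −0.67). Irf9, the DNA-binding part of the type I interferon complex, had a log2 signal of 8.26 with Compound C, 8.07 with doxorubicin, 8.66 with GSK 690693, 7.37 with tofacitinib and 8.98 with vehicle. Its partner Stat2 read 9.99 with Compound C, 9.67 with doxorubicin, 9.73 with GSK 690693, 8.82 with tofacitinib and 10.04 with vehicle. Both were lowest with tofacitinib, by 1.61 for Irf9 and 1.22 for Stat2 on the log2 scale, as was Usp18, the brake on the type I receptor (−2.77). With doxorubicin, Irf1, the activator of GBP genes downstream of interferon gamma, differed by −1.05 and Irf2 by −1.17. A link of these differences to the members' values was not tested. Irf1 differed by 0.16 or less from vehicle with the other 3 compounds. The genes of the interferons themselves, Ifng (4.16 to 4.32 over the 5 arrays) and Ifnb1 (2.56 to 2.88), did not reach the level for testing on any array.

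GTPases related to dynamin were counted beside them as structural relatives. Of 15 listed Mx, dynamin, atlastin, mitofusin and EHD genes, 13 were tested, and Mx2, the interferon-induced antiviral one, was the only one at least 1.5-fold lower with tofacitinib (−1.64) and with GSK 690693 (−1.37). That gene is 7.69% of the 13, beside 2% of all tested genes with tofacitinib and 3.21% with GSK 690693. Mx2 differed by −0.11 with Compound C, unlike Gbp7 and Irgm2. Atl1, an atlastin that shapes the endoplasmic reticulum, was 1.5-fold lower with Compound C (−0.71). With 7.69% of the 13, this is below the 9.99% of all tested genes. The medians of the list were −0.11 (Compound C), 0.23 (doxorubicin), −0.13 (GSK 690693) and −0.04 (tofacitinib). Ehd2 (−0.52 with Compound C) and the mitofusin gene Mfn1 (0.54 with tofacitinib) did not reach 1.5-fold.

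IRG and GBP proteins are placed on vacuoles with the help of the autophagy conjugation machinery. Listed were 16 genes of that machinery and of ubiquitin factors, all tested. At least 1.5-fold lower were 1 with tofacitinib, 0 with GSK 690693, 1 with Compound C and 1 with doxorubicin, and 0, 0, 2 and 3 were higher in that order. A count of 1 is 6.25% of the 16, beside 2% (tofacitinib), 9.99% (Compound C) and 14.2% (doxorubicin) of all tested genes. The higher counts are 12.5% with Compound C, beside 6.07%, and 18.8% with doxorubicin, beside 11.5%. The lower gene with tofacitinib and with Compound C was Rnf213, an interferon-induced ubiquitin ligase that coats microbes (−1.45 and −0.64, the second −0.58 after centring). Trim21, which showed −0.46 with tofacitinib, passed 1.5-fold there after centring (−0.63) and quantile normalization (−0.62). Gabarapl2, one of the ATG8 proteins needed for GBP targeting in mouse cells, read higher than with vehicle on each compound array, by 0.44 (Compound C), 0.75 (doxorubicin), 0.56 (GSK 690693) and 0.25 (tofacitinib). Only the doxorubicin difference passed 1.5-fold, and that with tofacitinib was under the yardstick. Vehicle was likewise the lowest array for 18.2% of all tested genes. Traf6 showed 0.85 with Compound C and −1.41 with doxorubicin, and Atg12 0.72 with Compound C.

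To find genes with the same pattern, the 4 differences of each tested gene from vehicle were compared with the median of the 7 members given above, by root mean square distance. The nearest of 12304 other genes were Rnf213 (distance 0.15), Xaf1 (0.16), Zbp1 (0.16), Ifi204 (0.17) and Mndal (0.20). All 5 are known as interferon-induced genes, and Ifi204 and Mndal belong to the HIN family of nucleic acid-binding proteins. The members themselves lay between 0.29 (Gbp3) and 0.95 (Gbp5) from their median, farther than each of these 5 genes. Gm4951 and Gbp9 were at ranks 13 and 15. The 4 differences share the vehicle array, and the distance is a description of these 5 arrays.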

How the data were processed

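Total RNA of 5 fibroblast samples, 300 ng each, was hybridised to 1 Affymetrix whole-transcript array per treatment. Each probe set has a log2 value on each array, as the authors deposited it, made with Affymetrix Expression Console 1.3.1.187 per the submitters' processing notes. For summarisation, background correction and normalization, nothing is stated in the sources used here. Values ran between 1.05 and 13.18, which was read as a log2 scale. If arrays were scaled to a common distribution, a shift of most genes would have been removed.

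Symbols came from the platform annotation: 23521 of 41345 probe sets carried exactly 1 symbol and were analysed, and 1814 with several symbols and 16010 absent from the annotation were left out. A gene with more than 1 probe set was represented by the brightest. Genes were kept if the highest of their values reached the median of its array over single-symbol probe sets. Differences are the compound minus vehicle, or minus another compound, in Python 3.11.15 with pandas 2.3.3, and genes were counted at 1.5-fold and 2-fold. The counting was tested on simulated data. The number of arrays limits the precision. Names in the text follow a rule: all members, up to 4 genes per list with the largest difference from vehicle, plus Stat2, Irf1, Irf9, Ifng, Ifnb1 and Tgtp1 where measured, and the 5 nearest profiles. Tgtp1 had no single-symbol probe set, and 1 further gene of the rule is not reported here. The members and lists were chosen with earlier results of these data known. Ptprc, as a check of cell type, and the myeloid markers and inflammasome genes named singly stand outside that rule. So do Irf7, Nlrc5, Trim21, Gbp10 and Irgq, and all of these were chosen after their values were seen. Rescaling of the lists was likewise added after seeing the data. A comparison of protein motifs was planned and not run, as no protein table was used here.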

Additional observations from a re-analysis of the deposited data

How the results depend on the processing

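No paired analysis was possible because each group has 1 array, and for the same reason no replicate could be left out. Centring each array on its median, quantile normalization, no filter, a filter on all 5 arrays and the mean of all probe sets (members have 1 each) reversed no difference of at least 1.5-fold. Under centring and quantile normalization no single member difference from vehicle moved by more than 0.17, but Gbp3 with doxorubicin turned to 0.02 under centring. With either scaling, 6 members in place of 5 were lower with tofacitinib, Irgm1 being gained, and GSK 690693 minus Compound C gave 2 lower and 0 higher. Doxorubicin minus tofacitinib gave 7 higher in place of 6 after centring, and with quantile normalization 1 member was lower with doxorubicin. The filter on all 5 arrays drops Gbp5, which left 0 members higher with doxorubicin and moved the member medians to 1.62 for doxorubicin minus tofacitinib and 0.77 for GSK 690693 minus tofacitinib. At 2-fold, 2 members were lower with Compound C than with vehicle, beside 2.53% of tested genes. With doxorubicin 3 were higher than with Compound C, beside 300 of the 12311 tested genes, and 3 than with GSK 690693, beside 206. Gbp5 counted there only through its doxorubicin reading, and over the other 6 genes both counts were 2. GSK 690693 minus Compound C gave 0 lower and 0 higher at 2-fold.

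The choice of reference mattered most. With vehicle replaced by the median of the other 4 arrays, 3 of them compound arrays, the member medians were −0.32 (Compound C), 0.97 (doxorubicin), −0.22 (GSK 690693) and −0.95 (tofacitinib). In that setting 1 member was lower with Compound C, beside 1332 of the 12311 tested genes, so nothing is read from that count. Higher with doxorubicin were 5, beside 921 of the tested genes, namely Iigp1, Igtp, Gbp3, Gbp7 and Gbp5 (1.26). Gbp5 reached the level for counting only through its doxorubicin reading, so nothing is read from its call. Of the differences of at least 1.5-fold, Iigp1 with Compound C (0.025) and Irgm2 with GSK 690693 (0.265) reversed, as did the IRG median with GSK 690693 (0.0125). Smaller differences also changed sign: with doxorubicin Iigp1 (1.08), Irgm1 (0.15), Irgm2 (0.43), Gbp3 (0.67) and Gbp7 (1.20), with Compound C Gbp3 (0.10) and with GSK 690693 Irgm1 (0.24). Over all tested genes, 246 were 1.5-fold lower and 328 higher with tofacitinib, against 600 and 67 after centring, 325 and 163 after quantile normalization and 429 lower with no filter, and with GSK 690693 296 were higher, against 171 after centring. Against the other 4 arrays, 130 were lower with tofacitinib, 238 with GSK 690693 (395 against vehicle) and 921 higher with doxorubicin (1421 against vehicle). The cause was not tested. Without a detection call, the signal over background of the dim Gbp5 is unknown.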

Other observations

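Enzymes that attach and trim the lipid anchor of GBPs with a CaaX end were tested in 6 of 6 genes, and 0 were at least 1.5-fold lower than with vehicle with any compound. With tofacitinib 2 were at least 1.5-fold higher, the processing protease gene Rce1 (0.63) and the prenyltransferase subunit gene Fnta (0.62), beside 2.66% of all tested genes. Both lost that call after centring (0.46 and 0.45) and after quantile normalization (0.50 and 0.53). With doxorubicin 1 was, the methyltransferase gene Icmt (0.68), beside 11.5%, and after centring Fnta as well (0.64). With Compound C and with GSK 690693 0 were, beside 6.07% and 2.4%, and Pggt1b with Compound C (0.58) passed after centring (0.64). The median over the 6 genes was 0.14 (Compound C), 0.30 (doxorubicin), 0.12 (GSK 690693) and 0.30 (tofacitinib).

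Of 9 listed inflammasome and pyroptosis genes, which act after GBPs expose bacteria in the cytosol, 4 reached the level for testing. Zbp1, a sensor of Z-form nucleic acids, had a log2 signal of 8.92 with Compound C, 9.78 with doxorubicin, 9.07 with GSK 690693, 8.24 with tofacitinib and 9.67 with vehicle. From low to high the arrays stood in the order tofacitinib, Compound C, GSK 690693, vehicle and doxorubicin, as for Igtp. The step from Compound C to GSK 690693 was under the yardstick in both genes, as was that from vehicle to doxorubicin (0.11) in Zbp1. No match in the full order is therefore read from these values. Casp4, the mouse lipopolysaccharide sensor caspase-11, read 8.62 with Compound C, 8.61 with doxorubicin, 7.94 with GSK 690693, 7.27 with tofacitinib and 8.05 with vehicle. For Casp4, Compound C lay 0.57 and doxorubicin 0.56 above vehicle, and both passed 1.5-fold after centring (0.63 and 0.62). Compound C thus lay above vehicle for Casp4, although by less than 1.5-fold on the deposited scale. The standard deviation of Compound C against vehicle over all tested genes was 0.455. Compound C lay below vehicle for all 7 measured GTPase genes, beside 6429 of the 12311 tested genes, and the dim Gbp5 (−0.19) lay within the yardstick. Gsdmd, the pore-forming gasdermin, showed −0.74 with Compound C on its brighter probe set and −0.13 on the other, and Pycard differed by 0.23 or less with every compound. Casp1, Aim2, Nlrp3, Il1b and Il18 did not reach the level for testing on any array.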
